A study of Mus musculus with 15 samples.

Results

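Macrophages given heme-albumin at 400 µM were compared with untreated macrophages, gene by gene across the whole transcriptome. The 6 libraries compared, 3 labelled heme-albumin 400 and 3 labelled control, are 6 of the 15 in the series and were taken by their labels. The comparison, the gene lists and the tests were chosen with earlier results of these data known. The marrow of mice aged 8 to 10 weeks was cultured with M-CSF (10 ng/ml, 7 days) to give the macrophages of all 15. Each of the remaining groups also has 3 libraries and received either the lower dose of heme-albumin (200 µM) or a cytokine (IL-4 or IFN-γ, 10 ng/ml each). The compound was made by dissolving hemin in sodium hydroxide and mixing it with human serum albumin, and no group used here received albumin without heme, so the effects of heme and of its carrier cannot be told apart. The treatment tag reads 400, 401 and 402 µM in replicates 1, 2 and 3 of the higher dose, while their titles and the protocol give 400 µM. Mouse strain, time under treatment and whether the libraries came from separate animals are not stated in the labels. Hence p-values measure only how far these samples spread, which may be technical.

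Macrophages of the spleen, liver and bone marrow take up aged red cells and recycle their iron. Heme oxygenase-1 opens the heme ring to biliverdin, carbon monoxide and iron, ferritin stores the iron and ferroportin exports it. Heme also binds the repressor BACH1 and removes it from DNA, and reactive species stabilise NRF2, so that genes with an antioxidant response element (a short sequence bound by either factor together with a small MAF protein) become available for transcription. Macrophages also hold a low tonic level of type I interferon signalling, which keeps antiviral genes on at a basal level.

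Levels are CPM (counts scaled to a common library total, with TMM factors), given for replicates 1, 2 and 3 in that order or as mean ± SD with n = 3. Changes are log2 fold changes ± SE of heme-albumin 400 over control from edgeR's quasi-likelihood test, and a gene rose or fell when its Benjamini-Hochberg adjusted p was under 0.05. Of 11883 genes tested, 3023 were called (25.4%): 1744 rose (14.7%) and 1279 fell (10.8%). By at least 2-fold, 811 rose (6.82%) and 394 fell (3.32%). Changes of over 16-fold were found for 107 genes that rose and 14 that fell. The groups did not overlap in CPM for 5397 genes (45.4%), and the median change over all genes tested was 0.01. Total counts were 8427352 to 15252357 in controls and 9069999 to 13182889 with heme-albumin, and the 10 most abundant genes took 11.4% ± 0.525 and 18.1% ± 2.28 of them (exact permutation test, two-sided p = 0.1, the smallest that 3 against 3 allow).

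**Figure D1:**
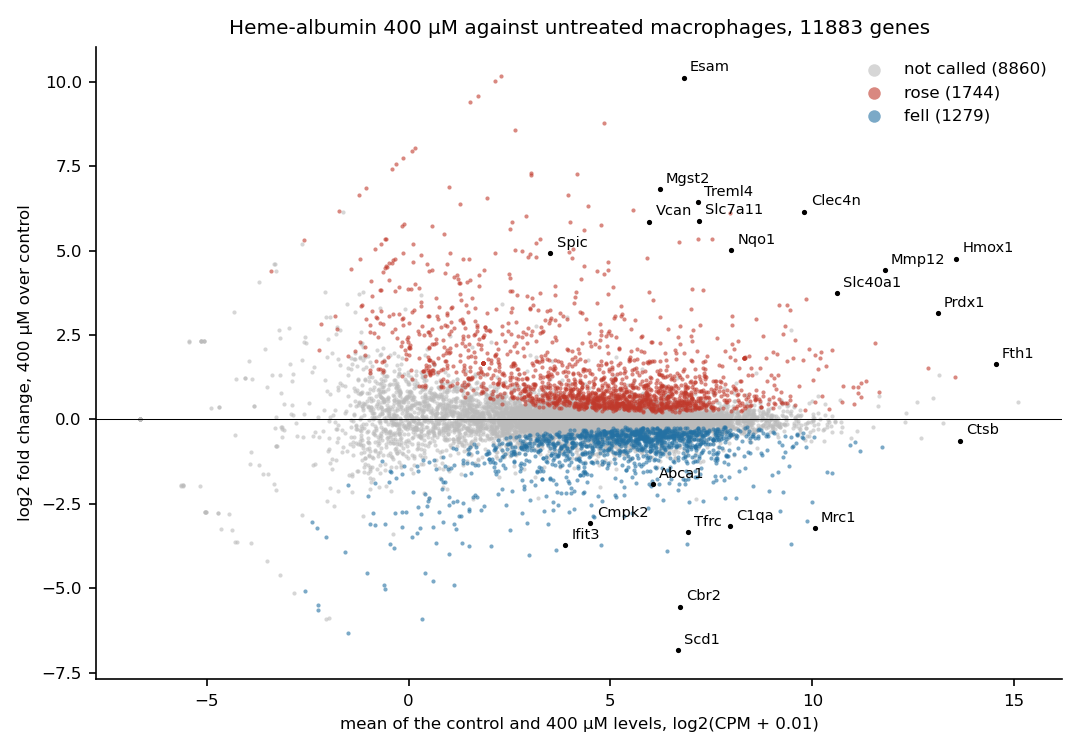
Log2 fold change of heme-albumin 400 µM over control (vertical axis) against the mean of both groups' levels on a log2 axis for 11883 genes, 1 point per gene, coloured by whether the gene rose (1744), fell (1279) or was not called. The largest changes run from -6.84 to 10.18, values for genes near 0 counts in 1 group are fitted and not bounds, and Hmox1, Prdx1 and Fth1 lie far to the right and above 0.

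Heme400 replicate 2 stood apart from the other treated libraries. Its log levels correlated with replicates 1 and 3 at 0.950 and 0.966, against 0.990 between replicates 1 and 3, as a description across genes. It was the treated library farthest from the controls for 1102 of the 1744 genes that rose (63.2%) and 758 of the 1279 that fell (59.3%). Without it 1366 genes rose and 902 fell, 2097 of the 3023 calls were kept, and all 3023 kept their sign. Among the genes named here, leaving it out moved the fold change by over 1.5 times for Clec4n (log2 change 5.53 without it), Il1f9 (7.36), Mmp12 (2.77), Procr (4.54), Ptgs2 (5.07), Serpinb9b (5.36), Slc6a9 (3.99), Slc7a11 (5.07) and Tnfsf4 (2.60), genes at or near 0 counts in a group aside. Leaving out Heme400 replicate 3 moved C1qa (-3.95), C1qb (-3.07), C1qc (-3.33), Cbr2 (-6.23), Ccl12 (-4.61), Fcrls (-4.68), Il21r (-2.92) and Mertk (-2.0) away from 0 by as much, and single controls so moved Hsd11b1 (6.6 without Control replicate 1, 8.69 without 3), Il1f9 (10.24 without Control replicate 1, 8.10 without 2) and Spic (5.52 without Control replicate 1). Procr, the endothelial protein C receptor (chosen after its values were seen), shows the pattern in a gene that rose: 8.63, 8.71 and 8.81 CPM in controls and 177, 667 and 229 with heme-albumin. C1qa, a chain of complement C1q, shows it in a gene that fell, at 375, 483 and 481 CPM in controls and 54.9, 2.88 and 90.4 with heme-albumin. Replicate 2 was the lowest treated library for some genes that rose, such as Cd5l, a secreted macrophage protein, at 535, 283 and 601 CPM against 59.4, 124 and 101 in controls. At 200 µM replicate 2 stood apart as well. By chi-square per degree of freedom between the raw counts of 2 libraries, it differed from replicates 1 and 3 at 36 and 22.7, against 8.52 between replicates 1 and 3. At 400 µM these values were 62.4, 49 and 10.8, and between controls they were 7.12 to 13.7. The column headers carry 3 dates, 1 for each replicate number, and none of the sources used here says what a date stands for.

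**Figure D2:**
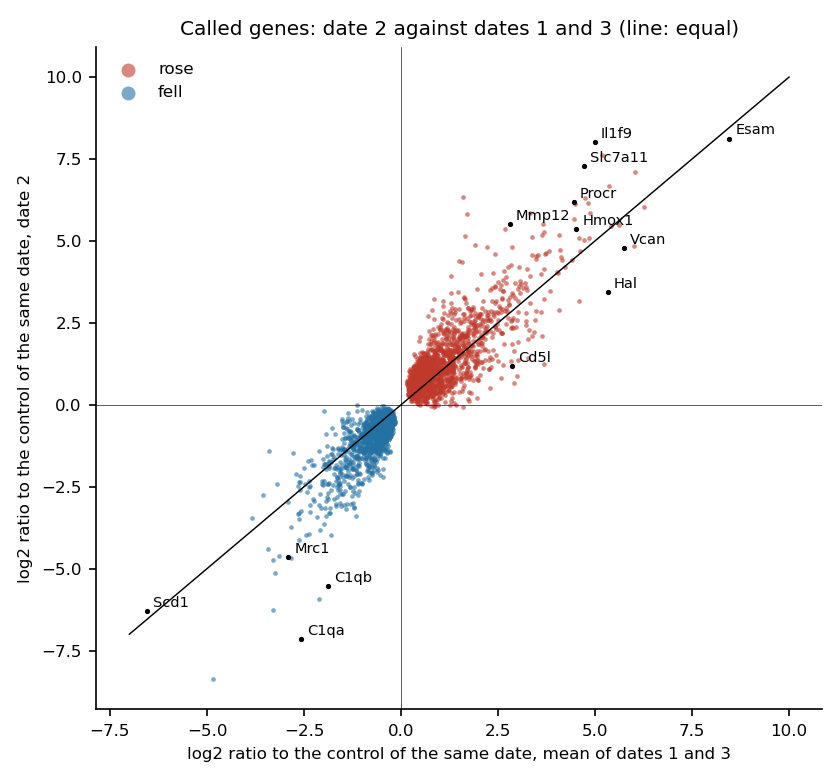
Log2 ratio of each heme-albumin 400 library to the control of the same date, for the 3023 called genes: the mean of dates 1 and 3 on the horizontal axis and date 2 on the vertical axis, with a line of equality. Median ratios of genes that rose were 0.79, 0.97 and 0.81 at dates 1, 2 and 3, and those of genes that fell were -0.61, -0.84 and -0.63.

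The label was checked against markers of macrophages and of other cells that marrow cultures can hold. The summed level of the macrophage markers was 33123 to 38895 CPM in controls and 41993 to 51995 CPM with heme-albumin, most of it from the lysozyme gene Lyz2. The markers Adgre1, Cd68, Fcgr1, Mertk and Cd14 were lower in all 3 treated libraries than in any control. Lyz2 was higher in all 3, and the remaining macrophage markers overlapped between groups. In the test Fcgr1 (-1.12) and Mertk (-1.36, adjusted p = 0.048) fell. Adgre1 (adjusted p = 0.445), Cd68 (0.0713), Cd14 (0.382) and Lyz2 (0.233) were not called. Over all genes tested, the groups did not overlap for 45.4%. Neutrophil markers summed to 5.10 to 33.0 CPM and 17.9 to 55.2 CPM. Dendritic cell markers summed to 0.384 to 0.971 CPM in controls and 0.110 to 0.240 CPM with heme-albumin. B cell markers were at most 0.182 CPM, erythroid markers at most 0.324 CPM and mast cell markers at most 0.549 CPM, and Siglech, Ms4a1, Ebf1, Cd3e, Cd3d, Cd8a, Ncr1, Hbb-bs, Hba-a1, Alas2 and Gp9 were at 0 counts in all 6 libraries. Sums that also did not overlap between groups were those of T and NK cell markers (5.29 to 6.13 against 0.865 to 1.80 CPM, nearly all of it Cd4), of megakaryocyte markers (131 to 247 against 362 to 680 CPM, nearly all of it Pf4) and of stromal and endothelial markers (15.7 to 26.0 against 28.8 to 30.3 CPM). The last did not move as a set: of its 4 tested genes 1 rose, 1 fell (-1.32) and 2 were not called. The gene that rose was the smooth muscle actin gene Acta2, from 2.24, 2.54 and 1.61 CPM to 20.8, 17.5 and 23.5 CPM (3.24 ± 0.33). Osteoclast markers summed to 4.68 to 11.2 CPM and 9.35 to 20.3 CPM. The part of other cells in the results was not tested. In bulk RNA, more or fewer cells of a type and more or less RNA per cell cannot be told apart.

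Hmox1, which encodes heme oxygenase-1 (ENSMUSG00000005413, chromosome 8, 75093621 to 75100589), stood at 933, 622 and 1044 CPM in controls and 22408, 25557 and 22509.8 CPM with heme-albumin. All 3 treated libraries were far above all controls, a change of 4.76 ± 0.29, adjusted p = 3.90e-07. Its share of all counts went from 0.0674 to 0.115% in controls to 2.17 to 2.35%. Of the 14 tested genes of heme breakdown and transport, 4 rose and 3 fell (median 0.28). The other genes that rose act beside heme oxygenase-1: Slc48a1, which carries heme out of the phagolysosome (1.77 ± 0.22), Abcb6, a porphyrin transporter (2.01 ± 0.11), and Blvrb, a biliverdin reductase (1.04 ± 0.23). Those that fell were the constitutive heme oxygenase Hmox2 (-0.41 ± 0.10), the biliverdin reductase Blvra (-0.52 ± 0.13) and the heme-binding protein Hebp1 (-0.50 ± 0.11). Abcb6 was the tightest of the set, at 23, 23 and 22.2 CPM in controls and 98.4, 81.3 and 95.4 CPM with heme-albumin. The hemoglobin receptor Cd163 was at 6.40, 4.84 and 7.09 CPM in controls and 2.08, 1.68 and 4.64 CPM with heme-albumin, a difference that did not pass the test (-1.07 ± 0.45, adjusted p = 0.0965). It passed in the 6 libraries alone with the replicate number as a block (adjusted p = 0.0213) and without Heme400 replicate 3 (adjusted p = 0.0307). Of the 9 enzymes of heme synthesis, Fech, which inserts iron into protoporphyrin, rose (0.78 ± 0.11), and Alas1, which starts the pathway in cells other than erythroid ones, was at -0.28 ± 0.35 (adjusted p = 0.591).

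Genes of iron export and storage rose and the main gene of iron uptake fell. Slc40a1, which encodes the iron exporter ferroportin (ENSMUSG00000025993, chromosome 1, 45908068 to 45926523), stood at 240.1, 115 and 292 CPM in controls and 2603, 2694 and 3377 CPM with heme-albumin. Every treated library was above every control (3.75 ± 0.43, adjusted p = 4.42e-05). Tfrc, the transferrin receptor (ENSMUSG00000022797, chromosome 16, 32608920 to 32632794), went the other way, from 256, 161 and 241 CPM to 20.6, 23.6 and 20.8 CPM (-3.34 ± 0.27, adjusted p = 2.41e-06). Its 3 treated values lie within a narrow band, below the lowest control. The ferritin heavy chain Fth1 went from 11595 ± 434 to 36107 ± 12689.9 CPM (1.64 ± 0.29) and the light chain Ftl1 from 6948 ± 472 to 16662 ± 1158 CPM (1.26 ± 0.23). The share of all counts taken by Fth1 was 1.26 to 1.31% in controls and 2.68 to 4.65% in treated libraries. Both chains have near-identical copies in the genome, so their counts are uncertain. Of 19 iron handling genes, 6 rose and 3 fell (median 0.15). The others that rose were Slc11a1, which moves iron out of the phagosome (1.23 ± 0.19), the metal importer Slc39a14 (0.64 ± 0.14) and Fbxl5, a part of the ubiquitin ligase that degrades iron regulatory protein 2 (0.99 ± 0.16). Cp, the ferroxidase ceruloplasmin, was 24.8-fold lower, counting interval 8.24 to 122, resting on few counts. The iron sensor Ireb2 was at 0.09 ± 0.12 (adjusted p = 0.614).

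Genes of splenic red pulp macrophages moved in both directions. Spic, the transcription factor that these cells depend on (ENSMUSG00000004359, chromosome 10, 88674772 to 88685015), was at 1.15, 0.363 and 0.645 CPM in controls and 22, 18 and 26.3 CPM with heme-albumin (4.92 ± 1.00, adjusted p = 0.00276). The groups were far apart, although the controls rest on few counts. Treml4, a surface receptor, rose as well, from 3.34 ± 1.33 to 286 ± 116 CPM (6.45 ± 0.68), and so did Cd5l (2.32 ± 0.44). Vcam1, which red pulp macrophages display, fell (-2.58 ± 0.62), and Timd4, a receptor for phosphatidylserine, was at least 4.13-fold lower, with 0 counts in all 3 treated libraries. In all, 3 of 12 genes on this list rose and 3 fell (median -0.51).

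Antioxidant genes rose as a group. Of 24 tested genes for NRF2-linked detoxification and the thioredoxin system, 20 rose and 0 fell, with a median change of 1.86 against 0.01 over all genes. Nqo1, a quinone reductase (ENSMUSG00000003849, chromosome 8, 107388225 to 107403206), was at 15, 14.9 and 15.7 CPM in controls and 316, 778 and 385 CPM with heme-albumin (5.02 ± 0.40, adjusted p = 2.41e-06). The treated libraries were all at least an order of magnitude above the controls, and replicate 2 was the highest. Prdx1, a peroxiredoxin that reduces hydrogen peroxide, reached 9357, 24876 and 13252 CPM from 1772, 1776 and 1818 CPM (3.15 ± 0.42). It entered the 10 most abundant genes in all 3 treated libraries, as did Hmox1 and Lpl. Prdx1 has processed copies in the genome, so its counts are uncertain. Further along the thioredoxin system, Srxn1, which repairs oxidised peroxiredoxins (2.77 ± 0.39), Txnrd1, thioredoxin reductase (1.74 ± 0.25), and Txn1 itself (0.60 ± 0.12) rose. Catalase (Cat, 1.98 ± 0.23) and the cytosolic superoxide dismutase Sod1 (1.52 ± 0.10) rose, while the mitochondrial superoxide dismutase Sod2 was at 0.22 ± 0.49 (adjusted p = 0.777). Aox1, an aldehyde oxidase, went from 0.640, 0.665 and 0.430 CPM to 16, 18.3 and 17.0 CPM (4.82 ± 0.35), and the prostaglandin reductase Ptgr1 rose by 2.97 ± 0.24.

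Sqstm1, the autophagy receptor p62, which also binds KEAP1, rose by 2.05 ± 0.26. Adh7, an alcohol dehydrogenase, was at 0 counts in each control and at 1.75, 13.5 and 1.89 CPM with heme-albumin, which was at least 70.0-fold higher with 3 counts over the group as the floor.

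The glutathione genes rose across synthesis, recycling and conjugation. Of 28 tested genes for glutathione and defence against ferroptosis (death by lipid peroxidation), 20 rose and 4 fell (median 1.69). Slc7a11, the cystine carrier, went from 6.78, 2.90 and 4.84 CPM to 155, 534 and 169 CPM (5.89 ± 1.06, adjusted p = 0.00122), and its partner chain Slc3a2 rose by 1.53 ± 0.31. Replicate 2 was the highest treated library for Slc7a11, and all 3 were above the controls. Both subunits of glutamate-cysteine ligase rose: the catalytic Gclc from 55.1 ± 8.40 to 459 ± 257 CPM (3.06 ± 0.39) and the modifier Gclm from 148, 124 and 156 CPM to 1302, 2189 and 1611 CPM (3.58 ± 0.40). Gsr, which regenerates glutathione, rose by 2.23 ± 0.34. Among transferases, the microsomal Mgst2 went from 1.66, 0.786 and 1.5 CPM to 129, 175 and 141 CPM (6.83 ± 0.32, adjusted p = 3.06e-08). Gsta3 (5.34 ± 0.74), Gstm1 (3.24 ± 0.38) and Gstp1 (2.04 ± 0.27) rose too, although members of these families resemble each other closely and their counts are uncertain. The conjugate exporter Abcc1 rose by 1.92 ± 0.18. The glutathione peroxidase genes Gpx1 and Gpx3, both chosen after their values were seen, went the other way. Gpx1 was at 224, 273 and 253 CPM in controls and 158, 81.2 and 128 CPM with heme-albumin (-1.03 ± 0.24), and Gpx3, a secreted form, fell (-1.80 ± 0.46).

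Enzymes that supply NADPH to these reactions rose in 5 of 13 cases, and 0 fell (median 0.29). They included the pentose phosphate enzymes G6pdx (0.91 ± 0.11), Pgd (1.5 ± 0.17) and Taldo1 (1.83 ± 0.24) and malic enzyme, Me1, which went from 23.6, 21.2 and 21.3 CPM to 102, 113 and 109.6 CPM (2.30 ± 0.18, adjusted p = 2.41e-06). The regulators were measured too. Nfe2l2, which encodes NRF2, was at 329, 341 and 319 CPM in controls and 232, 307 and 252 CPM with heme-albumin (-0.32 ± 0.19, adjusted p = 0.236), so its groups did not overlap but the difference did not pass the test. Bach1 rose (0.68 ± 0.13) and the large MAF factor Maf fell (-1.99 ± 0.36). Of 9 metal-responsive genes, 4 rose and 1 fell. The metallothionein Mt3 was 466-fold higher, counting interval 83.0 to 18443, while the main metallothioneins Mt1 (-0.07 ± 0.16, adjusted p = 0.797) and Mt2 (-0.00 ± 0.26, adjusted p = 0.995) were not called, and the zinc transporter Slc30a4 rose by 1.42 ± 0.22.

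Promoter sequences were searched for TGANTCAGC (N is any base, both strands), a form of the antioxidant response element that overlaps the AP-1 motif TGANTCA. The windows ran from 250 bases before to 50 bases after each start site in RefSeq (build GRCm38.p6), and 9276 of the tested genes were matched to one. The letters were found in 1.19% of all 32851 windows, in 1.32% of tested genes, in 2.28% of genes that rose and in 1.37% of genes that fell. Of genes that changed at least 4-fold, they were in 9 of 281 that rose (3.20%) and 6 of 86 that fell (6.98%). On the NRF2 list, 4 of 22 genes with a window held them (18.2%): Prdx1, Srxn1, Osgin1 and Htatip2. The type I interferon list, whose genes fell, held them in a like share, 4 of 23 (17.4%). The 4 of the NRF2 list, and the urokinase receptor gene Plaur, which also rose (1.29 ± 0.14), are shown as 60 bases of the gene's own strand with the match in capitals. They lie before the start site and outside annotated exons, at chr4:116685441-116685500, plus strand (Prdx1), chr2:152105454-152105513, plus strand (Srxn1), chr8:119437023-119437082, plus strand (Osgin1), chr7:49759438-49759497, plus strand (Htatip2) and chr7:24462387-24462446, plus strand (Plaur).
Prdx1: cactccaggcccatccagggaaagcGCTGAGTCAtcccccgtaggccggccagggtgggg
Srxn1: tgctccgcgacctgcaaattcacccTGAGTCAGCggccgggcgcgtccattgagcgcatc
Osgin1: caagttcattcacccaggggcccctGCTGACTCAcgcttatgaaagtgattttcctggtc
Htatip2: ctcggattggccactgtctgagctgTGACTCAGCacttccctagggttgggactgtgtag
Plaur: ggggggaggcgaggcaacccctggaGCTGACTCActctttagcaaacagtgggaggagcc
The match is on the strand shown in Srxn1 and Htatip2 and on the opposite strand in Prdx1, Osgin1 and Plaur. Osgin1, an oxidative stress-induced growth inhibitor, rose by 1.17 ± 0.26, and the NADPH-dependent Htatip2 by 0.72 ± 0.13. A match describes the letters and not a bound site, and Nqo1 and Gclm rose without these letters in this window.

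**Figure D3:**
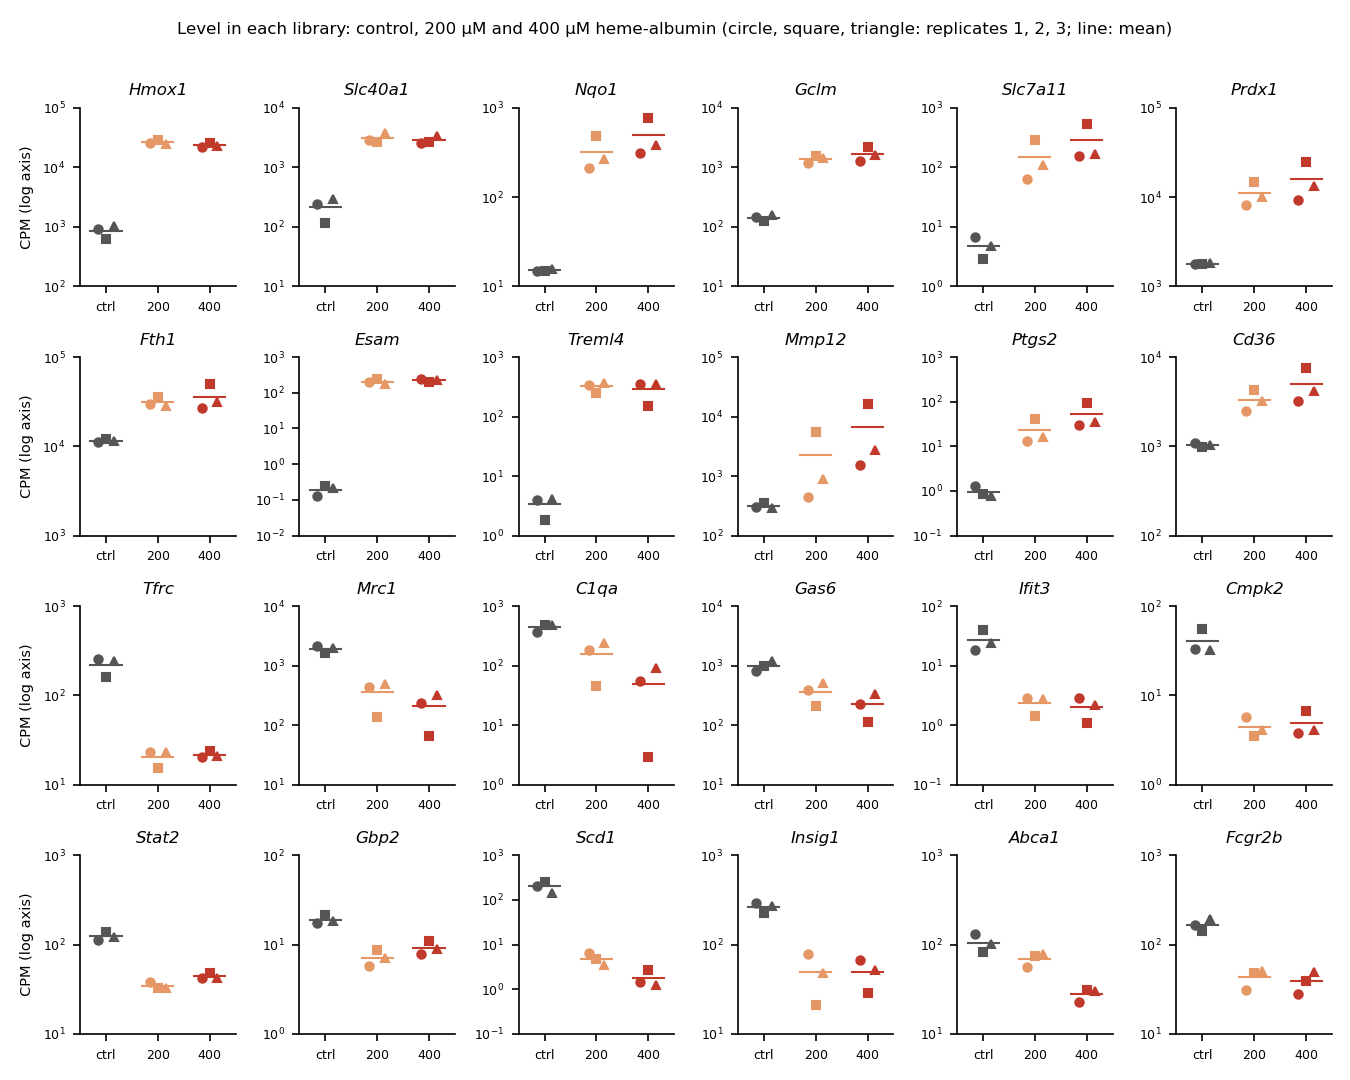
Level of 24 genes named in the text in each library on log axes in CPM, with control, 200 µM and 400 µM side by side, replicates 1, 2 and 3 as circles, squares and triangles and the mean as a line. Hmox1, Slc40a1 and Nqo1 sit above the controls in all 3 libraries of 400 µM, and Tfrc, Mrc1, C1qa and Scd1 sit below them.

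Interferon-stimulated genes fell almost without exception. Of 32 tested genes of the type I interferon response, 0 rose and 30 fell, with a median of -1.76, and the other 2 (Oas3 at -0.74 and Oasl1 at -0.67) were lower without passing the test. With the replicate number as a block over all 15 libraries Oas3 passed too (adjusted p = 0.0273). Among the effectors, Ifit3 went from 18.3, 39.9 and 23.9 CPM to 2.85, 1.08 and 2.20 CPM (-3.72 ± 0.39, adjusted p = 2.18e-05). Its reads can be shared with the near-identical Ifit3b. Ifit1 was at 22.3, 39.4 and 27.3 CPM in controls and 3.61, 7.31 and 3.54 CPM with heme-albumin (-2.65 ± 0.35). Controls were low but clearly above the treated libraries for both. Isg15, a ubiquitin-like modifier, fell (-2.15 ± 0.24), as did Rsad2, the antiviral enzyme viperin (-2.01 ± 0.26), and its neighbour Cmpk2, a mitochondrial nucleotide kinase (-3.08 ± 0.28). Cxcl10, a chemokine that draws T cells, went from 19.2, 25.6 and 14.0 CPM to 3.39, 1.20 and 2.28 CPM (-3.09 ± 0.43).

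Several signalling components of the same response fell. Irf7, the factor that amplifies interferon production, went from 48.7, 95.2 and 57.0 CPM to 11.9, 17.4 and 13.1 CPM (-2.25 ± 0.39, adjusted p = 9.32e-04). Stat2, a part of the ISGF3 complex, was at 112, 140.3 and 123 CPM in controls and 42.2, 48.3 and 41.9 CPM with heme-albumin (-1.51 ± 0.13). For both genes the lowest control was above the highest treated library. The RNA sensors Ddx58 (-1.11 ± 0.17) and Dhx58 (-1.51 ± 0.11) and the nucleic acid sensor Zbp1 (-2.04 ± 0.26) fell, as did Usp18, which removes ISG15 from proteins and restrains the receptor (-2.19 ± 0.34). The receptor chains Ifnar1 (-0.24 ± 0.15, adjusted p = 0.288) and Ifnar2 (-0.02 ± 0.13, adjusted p = 0.943) were not called. Of the chains of the IFN-γ receptor, Ifngr1 fell (-0.89 ± 0.17) and Ifngr2 was at 0.13 ± 0.18 (adjusted p = 0.643).

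Guanylate-binding proteins and immunity-related GTPases, which attack the vacuoles of intracellular microbes, were lower too: 0 of 18 genes on this list rose and 13 fell (median -1.06, or -1.01 with genes near 0 counts at their bounds). Gbp2 was at 17.3, 21.2 and 18.2 CPM in controls and 7.88, 11 and 8.88 CPM with heme-albumin (-1.03 ± 0.25). Gbp5 (-2.43 ± 0.42), Irgm1 (-0.88 ± 0.18) and the factor Irf1 (-0.97 ± 0.13) fell. Iigp1 was 76.5-fold lower, counting interval 13.4 to 3048. These families have near-identical members, so single values are uncertain. Irf8, a factor of macrophage identity on the same list, was at -0.07 ± 0.13 (adjusted p = 0.747).

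Class I antigen presentation moved the same way by smaller amounts, with 0 of 20 genes higher and 12 lower (median -0.53). The peptide transporter Tap1 went from 58.1, 81.2 and 66.7 CPM to 38.3, 29.2 and 41.8 CPM (-0.91 ± 0.17) and the immunoproteasome subunit Psmb9 from 42.8, 51.3 and 45.2 CPM to 26.2, 16.3 and 27.4 CPM (-0.99 ± 0.17). The 2 genes overlap each other on opposite strands. The nonclassical heavy chain H2-Q4 (-1.30 ± 0.23) and its close copy H2-Q7 (-3.36 ± 0.67) fell. The classical heavy chain H2-D1 was at -0.07 ± 0.25 (adjusted p = 0.864). Of 11 class II genes, H2-Aa (-1.75 ± 0.38) and H2-Eb1 (-2.05 ± 0.40) fell, and 2 rose (1 without Control replicate 1 or Heme400 replicate 3).

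The same promoter windows were searched on both strands for TTTC followed after any 2 bases by TTTC, the interferon-stimulated response element that IRF and STAT factors bind, which also matches plain pyrimidine tracts. It was found in 3.44% of all windows, in 4.12% of tested genes, in 3.76% of genes that rose and in 7.91% of genes that fell. Of genes that fell at least 4-fold, 20 of 86 held it (23.3%), and of those that rose as much 14 of 281 (4.98%). On the type I interferon list it was found in 14 of 23 genes with a window (60.9%) and on the GTPase list in 10 of 13 (76.9%). The stretches printed here, from 5 genes that fell and with the match in capitals, are outside annotated exons at chr19:34640760-34640819, plus strand (Ifit1), chr4:156200856-156200915, minus strand (Isg15), chr10:128270251-128270310, plus strand (Stat2), chr5:92349068-92349127, minus strand (Cxcl10) and chr3:142530258-142530317, plus strand (Gbp7).
Ifit1: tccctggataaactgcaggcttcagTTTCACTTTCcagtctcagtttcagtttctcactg
Isg15: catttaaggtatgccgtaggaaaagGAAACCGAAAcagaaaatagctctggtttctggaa
Stat2: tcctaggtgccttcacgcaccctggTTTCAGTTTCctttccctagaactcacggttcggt
Cxcl10: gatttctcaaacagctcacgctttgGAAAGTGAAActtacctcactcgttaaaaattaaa
Gbp7: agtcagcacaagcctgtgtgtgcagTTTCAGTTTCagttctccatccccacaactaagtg
Ifit1 has another match 19 bases further on, and Isg15 has 3 overlapping matches. Gbp7, a guanylate-binding protein, fell (-1.22 ± 0.21). Isg15 and Cxcl10 hold the match on the opposite strand.

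**Figure D4:**
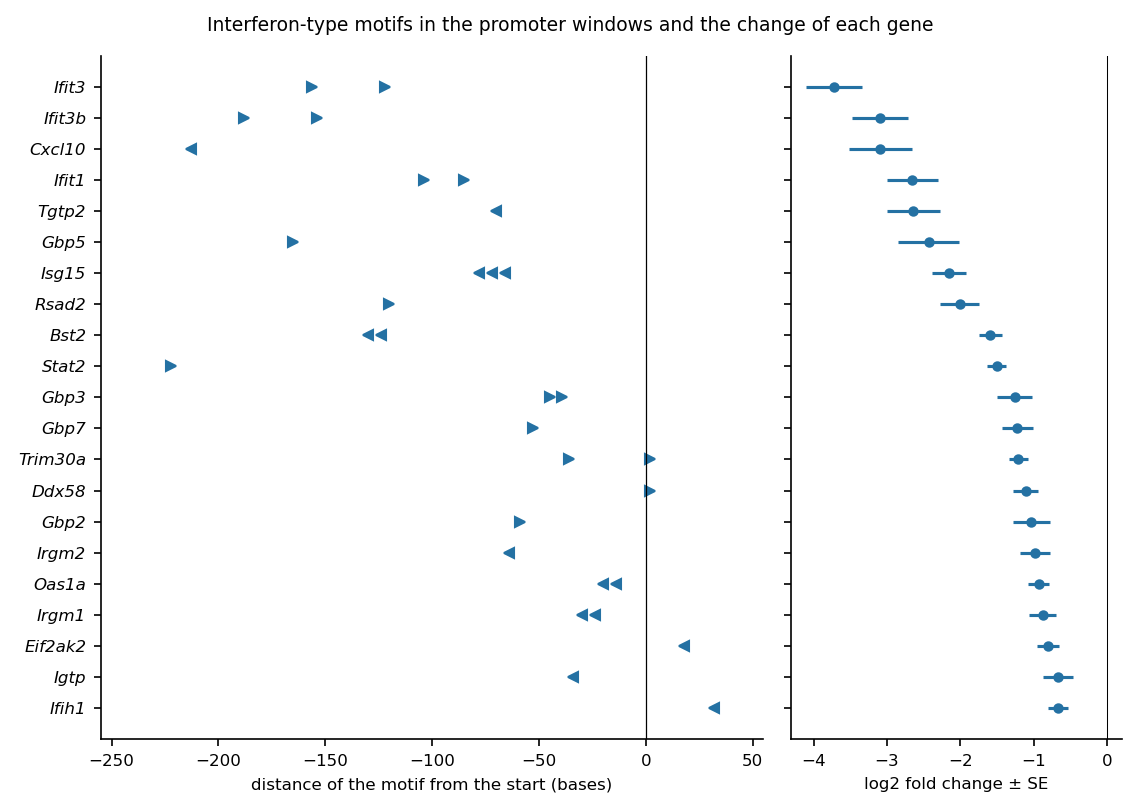
Left, position of each interferon-stimulated response element match relative to the start site (horizontal axis in bases, start at 0; triangles point right on the gene strand and left on the opposite strand) for the 21 called interferon genes that hold one, of 31 with a window outside chromosome 18. Right, their log2 fold change ± SE at 400 µM over control, below 0 for all 21.

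Receptors for debris, antibodies and microbes changed in opposite directions. Mrc1, the mannose receptor (ENSMUSG00000026712, chromosome 2, 14229392 to 14332057), went from 2181, 1654 and 1968 CPM to 236, 65.1 and 319 CPM (-3.22 ± 0.62, adjusted p = 0.00198), among the largest losses in CPM of any gene. Treated libraries were all well below the controls, with replicate 2 the lowest. Clec4n, the C-type lectin dectin-2 (ENSMUSG00000023349, chromosome 6, 123229843 to 123247021), rose from 28.6, 14.6 and 31.5 CPM to 827, 3007 and 1468 CPM (6.16 ± 0.75, adjusted p = 6.39e-05). The lectin Clec4d (1.81 ± 0.46), the lipid scavenger receptor Cd36 (2.27 ± 0.29) and the class A scavenger receptor Msr1 (1.00 ± 0.19) rose too. Cd36 reached 3218, 7588 and 4133 CPM from 1080.4, 996 and 1025 CPM. Of 21 scavenger and lectin receptors, 10 rose and 3 fell (median 0.56), and without Control replicate 3 the count that rose was 6.

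Fc receptors, which bind antibody, fell in 5 of 7 cases and rose in 0 (median -0.99, highest 0.56). With the replicate number as a block over all 15 libraries, 1 rose. The inhibitory Fcgr2b was at 165, 141 and 195 CPM in controls and 28.0, 38.8 and 49.9 CPM with heme-albumin (-2.10 ± 0.25). The high-affinity Fcgr1 (-1.12 ± 0.24), the shared signalling chain Fcer1g (-0.83 ± 0.14) and the Fc receptor-like Fcrls (-3.90 ± 0.70) fell. Fcgr3 was at -0.11 ± 0.12 (adjusted p = 0.536).

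All 3 chains of complement C1q fell. C1qb was at 1514, 1835 and 1793 CPM in controls and 369, 39.4 and 542 CPM with heme-albumin (-2.43 ± 0.63, adjusted p = 0.0125), and C1qc at 868, 1131 and 1059.6 CPM and 185, 18.1 and 266 CPM (-2.70 ± 0.65, adjusted p = 0.00832). The treated libraries were below the controls for each chain, with replicate 2 far below replicates 1 and 3. Of 19 complement genes, 0 rose and 5 fell (median -0.51), or 3 without Control replicate 1, Control replicate 3 or Heme400 replicate 2. Among genes for uptake of apoptotic cells, 2 of 18 rose and 7 fell (median -0.37), and 1 rose without Control replicate 1, 2 or 3 or Heme400 replicate 3. Gas6, which bridges phosphatidylserine to the TAM receptors, went from 811, 1000.3 and 1210.4 CPM to 231, 113 and 334 CPM (-2.16 ± 0.41), while the phosphatidylserine receptor Cd300a rose from 90.9, 116 and 102 CPM to 299.9, 327 and 311 CPM (1.6 ± 0.15).

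Adhesion genes included the largest fitted rise of any gene with counts in the controls. Esam, an adhesion molecule of endothelial cells and platelets (ENSMUSG00000001946, chromosome 9, 37528078 to 37538319), was at 0.128, 0.242 and 0.215 CPM in controls and 238, 206 and 229.9 CPM with heme-albumin (10.13 ± 0.21, adjusted p = 1.74e-12). The 3 treated libraries lay close together and the controls were near 0. E-cadherin, Cdh1, rose to 3.50, 3.60 and 3.62 CPM from 0.128, 0.242 and 0.107 CPM (4.34 ± 0.35). The collagen-binding integrin Itga1 (3.75 ± 0.46), the leukocyte integrins Itgal (1.68 ± 0.25) and Itgb2 (0.69 ± 0.13) and Itgb7 (2.45 ± 0.25) rose, and Itga9 fell (-2.68 ± 0.58). On this list 11 of 26 genes rose and 5 fell (median 0.56).

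Matrix proteases and their regulators rose in 9 of 20 cases and fell in 3 (5 in the 6 libraries alone with the replicate number as a block), with a median of 0.80. Mmp12, macrophage elastase, was at 299, 353 and 292 CPM in controls and 1555, 16021 and 2749.8 CPM with heme-albumin (4.43 ± 0.98, adjusted p = 0.00493). Replicate 2 carried most of that mean, at 1.47% of its counts, and without it the change was 2.77 (adjusted p = 0.0241). The collagenases Mmp8 (101, 112 and 92.6 CPM to 801, 1371 and 1011 CPM, 3.38 ± 0.33) and Mmp13 (2.45 ± 0.46) and the protease Mmp19 (1.97 ± 0.13) rose more evenly. In the plasminogen system the receptor Plaur rose, and its ligand urokinase, Plau, fell from 916, 609.7 and 832 CPM to 210.0, 112 and 224 CPM (-2.11 ± 0.53). Serpins, a family of protease inhibitors, rose in 12 of 16 cases and fell in 0 (median 2.01), with Serpinb9b, a member with close copies, going from 5.88, 8.29 and 6.98 CPM to 238, 903 and 343 CPM (6.13 ± 0.68).

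Of 16 prostanoid and leukotriene genes, 9 rose and 4 fell (median 0.59), or 2 fell without Control replicate 3 or Heme400 replicate 2. Ptgs2, the inducible cyclooxygenase, was at 1.28, 0.847 and 0.752 CPM in controls and 30.8, 93.9 and 35.8 CPM with heme-albumin (5.75 ± 0.62, adjusted p = 2.85e-05). Its source of arachidonate, the cytosolic phospholipase Pla2g4a, rose by 1.20 ± 0.13, and the secreted phospholipase Pla2g7, which inactivates platelet-activating factor, by 3.38 ± 0.60. The prostaglandin D synthase Hpgds fell from 235, 253 and 263 CPM to 98.1, 115 and 124 CPM (-1.15 ± 0.17). Of 27 cytokine genes 4 were higher, or 2 without Control replicate 1 or Heme400 replicate 3. Lower were 2, or 1 without Control replicate 1 or 3 or Heme400 replicate 3. Their median was -0.10, and over all genes tested 14.7% rose and 10.8% fell. Tnf was at 129, 116 and 121 CPM in controls and 105, 107 and 134 CPM with heme-albumin (-0.08 ± 0.12, adjusted p = 0.676). The growth factor Igf1 rose from 620.0, 664 and 643 CPM to 1314, 1419.6 and 1591 CPM (1.17 ± 0.29), as did the costimulatory ligand Tnfsf4, from 1.6, 0.484 and 1.29 CPM to 7.66, 28.6 and 5.90 CPM (3.65 ± 0.64, or 2.60 without Heme400 replicate 2), and Vegfb fell (-1.26 ± 0.26). Of receptors, Ccr1, which binds inflammatory CC chemokines, rose (2.66 ± 0.53), as did Csf2rb, the common beta chain (1.58 ± 0.39), and Il21r fell (-2.31 ± 0.50). Ccl12, a monocyte chemokine, fell from 28.4, 21.4 and 21.6 CPM to 1.75, 0.120 and 2.67 CPM (-3.86 ± 0.92).

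Genes of lipid synthesis fell. Of 24 tested genes for cholesterol synthesis and its control, 0 rose and 19 fell (median -1.38), and without Heme400 replicate 2 the count was 12. Acat2, at the entry of the pathway, went from 87.4, 73.0 and 82.8 CPM to 17.3, 7.31 and 11.1 CPM (-2.77 ± 0.41, adjusted p = 3.14e-04), Hmgcs1 from 265, 198 and 214 CPM to 93.2, 58.9 and 68.5 CPM (-1.62 ± 0.26) and the late enzyme Dhcr7 from 109.9, 86.7 and 109 CPM to 32.1, 26.3 and 27.6 CPM (-1.83 ± 0.28). All 3 treated libraries were below all controls for each. Insig1, which holds the factor SREBP in the endoplasmic reticulum and is itself an SREBP target, fell (-2.41 ± 0.46).

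Among genes of fatty acid synthesis, 0 of 13 rose and 9 fell (median -0.90), or 5 without Control replicate 1 or Heme400 replicate 3. Scd1, the stearoyl-CoA desaturase (ENSMUSG00000037071, chromosome 19, 44394455 to 44407879), had the deepest fitted fall of all genes tested, from 206, 255 and 145 CPM to 1.42, 2.76 and 1.26 CPM (-6.84 ± 0.75, adjusted p = 3.33e-05). Its neighbour Scd2 went from 1422, 1269 and 1251 CPM to 100.3, 115 and 86.9 CPM (-3.71 ± 0.64). Both desaturases were below all controls in all 3 treated libraries, with replicate 2 the highest of these. Acly, which makes cytosolic acetyl-CoA, fell (-0.91 ± 0.15), as did the regulator Srebf1 (-0.90 ± 0.23).

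Genes of lipid uptake, storage and oxidation went up instead, with 9 of 20 higher and 1 lower on the PPAR and lipid storage list (median 0.57). Lpl, lipoprotein lipase, reached 10729, 12155 and 10572 CPM from 3774, 4265 and 3505 CPM (1.54 ± 0.18, adjusted p = 4.86e-05). The lipid droplet coat Plin2 went from 653, 659 and 628 CPM to 1662, 2458 and 1733 CPM (1.59 ± 0.20). Angptl4, an inhibitor of lipoprotein lipase (2.32 ± 0.30), and Cpt1a, which admits fatty acids to mitochondria (1.27 ± 0.14), rose, while Pparg itself was at 0.50 ± 0.24 (adjusted p = 0.142). Of the cholesterol efflux genes, Abca1 fell from 131, 82.5 and 102 CPM to 22.9, 30.7 and 30 CPM (-1.91 ± 0.29, adjusted p = 3.60e-04) and the phospholipid transfer protein Pltp fell too (-1.84 ± 0.43). On the lipid efflux list, which also holds Lpl and Plin2, 3 of 14 genes rose and 6 fell (median -0.33). Without Heme400 replicate 2 the counts were 2 and 4.

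Most proteasome genes rose. Of 35 constitutive proteasome subunits, 22 rose and 0 fell (median 0.39). Psmd5 and Psmd11, chosen after their values were seen, were at 53.4, 51.3 and 49.0 and 88.3, 83.4 and 89.2 CPM in controls and at 109.9, 143 and 129 and 167, 221 and 176 CPM with heme-albumin (1.31 ± 0.10 and 1.11 ± 0.11). The immunoproteasome subunit Psmb9, given above, fell. Of 16 heat shock genes 6 rose and 0 fell (median 0.34), led by the cochaperone Dnajb4 (21.6, 22.2 and 21.3 to 80.0, 147 and 95 CPM, 2.30 ± 0.20) and the chaperone Hsph1 (1.31 ± 0.17). Hspa8 was at -0.13 ± 0.11 (adjusted p = 0.426). Of 25 autophagy genes 5 rose and 2 fell (median 0.27), and 0 fell without Control replicate 3 or Heme400 replicate 1. Gabarapl1, which tags autophagosomes, rose by 1.5 ± 0.21, and Map1lc3b was at -0.24 ± 0.11 (adjusted p = 0.147).

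Lysosomal genes divided. Of 32, 7 rose (4 without Control replicate 1) and 9 fell (5 without Control replicate 3), with a median of -0.15. The cathepsins Ctsl (1637, 1597 and 1564 to 3346, 3702 and 3595 CPM, 1.15 ± 0.14) and Ctsh (1.76 ± 0.19) and the lipase Lipa (0.77 ± 0.18) rose. The cathepsins Ctsb (14895, 15755 and 16437 to 8398, 11528 and 10516 CPM, -0.63 ± 0.16) and Ctsc (-1.09 ± 0.19) and the hexosaminidase chain Hexa (-0.82 ± 0.12) fell.

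Genes of stress pathways that heme can engage were called in both directions. Over all genes tested, 14.7% rose and 10.8% fell. On the integrated stress response list 2 of 18 genes rose and 2 fell (median 0.03), the 2 that rose being called neither without Control replicate 1 nor without Heme400 replicate 2, and the unfolded protein response list had 1 of 17 higher and 1 lower (median -0.19), or 4 lower in the 6 libraries alone with the replicate number as a block. The endoplasmic reticulum chaperone Hsp90b1 was at 1094, 979 and 942 CPM in controls and 909, 646 and 948 CPM with heme-albumin (-0.27 ± 0.24, adjusted p = 0.447). Herpud1, which acts in degradation of misfolded proteins there, fell (-1.27 ± 0.30). Of 76 subunits of oxidative phosphorylation, 5 rose and 1 fell (median 0.05), and 1 to 3 rose without Control replicate 1, 2 or 3 or Heme400 replicate 1 or 3. Of 81 cytosolic ribosomal proteins 4 rose (2 without Control replicate 1 or 3) and 0 fell (median 0.07). Of 39 replication and mitosis genes 0 rose and 2 fell (1 to 4 without single libraries), although the median was -0.81. The groups did not overlap in CPM for 32 of the 39, against 45.4% of all genes tested. In the 6 libraries alone with the replicate number as a block, 27 of the 39 fell.

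**Figure D5:**
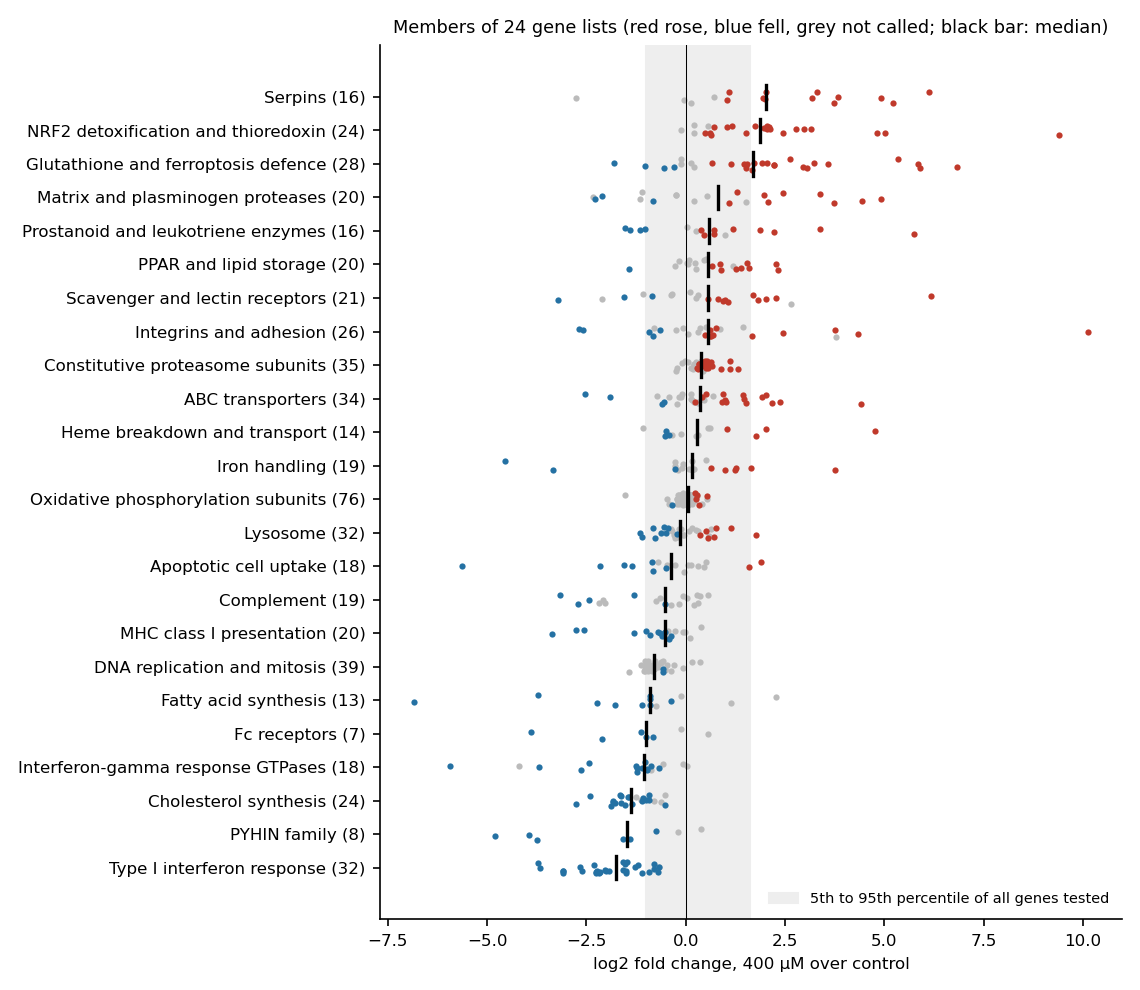
Log2 fold change at 400 µM over control (horizontal axis) of every tested member of 24 gene lists and families (rows, number tested in brackets), red where the gene rose, blue where it fell and grey where it was not called, with the median as a black bar and the 5th to 95th percentile of all genes as a grey band. The NRF2 list (median 1.86) and the type I interferon list (median -1.76) lie on opposite sides of 0, and the oxidative phosphorylation family sits near it (median 0.05).

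The largest rises were in genes close to silent in controls. The homeobox gene Six4 was at 0 counts in each control and at 4.38, 17.0 and 4.95 CPM after treatment, which was at least 112-fold higher (floor of 3 counts over the group). Il1f9, the interleukin 36 gamma gene, went from 0.256, 0 and 0.107 CPM to 19.7, 129.7 and 22.6 CPM (8.79 ± 1.53, adjusted p = 9.94e-04). Replicate 2 was the highest for both genes. Other rises from near 0 were even across the treated libraries. The ubiquitin ligase Rnf183 went from 0.640, 0.484 and 0.430 CPM to 44.2, 43.0 and 41.7 CPM (6.32 ± 0.34, adjusted p = 1.30e-07), Hsd11b1, which regenerates active glucocorticoid, from 0, 0.0605 and 0.322 CPM to 13.5, 18.7 and 16.5 CPM (7.25 ± 0.85, adjusted p = 5.06e-05), and Ptprn, a protein of dense core vesicles, from 0.192, 0.121 and 0.430 CPM to 46.3, 27.1 and 33.1 CPM (7.28 ± 0.60, adjusted p = 2.55e-06). Among the deepest falls, Cbr2, a carbonyl reductase, went from 180.3, 244 and 199 CPM to 5.15, 0.240 and 7.31 CPM (-5.54 ± 0.69, adjusted p = 7.86e-05) and Ighm, the immunoglobulin mu heavy chain, from 225, 214 and 229 CPM to 19.7, 9.71 and 21.4 CPM (-3.71 ± 0.73, adjusted p = 0.00225), although the B cell marker Ms4a1 was at 0 in all 6 libraries.

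The lower dose, 200 µM, was compared directly with 400 µM to see which responses grew with dose. The test, which had no block for the replicate number, found no gene at an adjusted p under 0.05 (0 of 11883 in edgeR). At an unadjusted p under 0.05 there were 1796 genes, 745 higher and 1051 lower at 400 µM. DESeq2 called 2 genes higher and 9 lower, among them Abca1, and edgeR with only these 6 libraries and the replicate number as a block called 147 higher and 97 lower. Both doses share the same controls, so their changes are given side by side only. Hmox1 was at 25559, 28866 and 24860.2 CPM at 200 µM, a difference of -0.17 ± 0.25 (400 over 200), and Slc40a1 at 2938, 2634 and 3767 CPM (-0.11 ± 0.38). Tfrc was at 23.5, 15.4 and 23.3 CPM (0.06 ± 0.26). C1qa was at 183, 44.8 and 242 CPM at 200 µM (-1.65 ± 0.75), between controls and 400 µM at each date, and Scd1 at 6.37, 4.65 and 3.50 CPM (-1.48 ± 0.80). Slc7a11 was at 64.8, 285 and 108 CPM (0.91 ± 0.83), Nqo1 at 213, 487 and 270.0 CPM (0.61 ± 0.34) and Abca1 at 56.9, 74.1 and 78.4 CPM (-1.32 ± 0.29). Ftl1 was higher at 200 µM in each replicate, at 18702, 25743 and 19068 CPM (-0.35 ± 0.23), without passing the test. Of the interferon genes, Ifit1 was at 4.94, 2.62 and 3.39 CPM (0.35 ± 0.40) and Usp18 at 3.00, 2.45 and 1.91 CPM (1.21 ± 0.40), below all controls at both doses.

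In GENCODE M21 the following genes named in the text overlap another annotated gene on either strand, and since the strand setting of the counting is not known from the sources used here, their counts are uncertain: Abcb6, Adh7, Alas1, Cebpa, Cp, Csf1r, Csf2rb, Ctsb, Ctsl, Cxcl10, Dbp, Dhx58, Dusp5, Fbxl5, Fcgr2b, Fosl1, Ftl1, G6pdx, Gabarapl1, Gas6, Gbp2, Gbp7, Gclm, H2-Q4, Hebp1, Hexa, Hmgcs1, Hmox2, Hsp90b1, Hspa8, Ifnar2, Irf1, Irf7, Itga1, Jun, Maf, Map1lc3b, Me1, Mmp12, Mmp19, Mt2, Oasl1, Pla2g7, Pltp, Psmb9, Ptprn, Scd2, Serpinb9b, Slc30a4, Slc48a1, Slc6a9, Sqstm1, Srebf1, Tap1, Usp18 and Vcam1. Genes taken as examples after their values were seen were Ddx58, Gbp2, Gpx1, Gpx3, Gsr, Gsta3, Htatip2, Ifit1, Ifit3b, Ifnar1, Ifnar2, Ifngr2, Insig1, Irf7, Irgm1, Itga9, Osgin1, Plau, Procr, Psmd11, Psmd5, Rsad2, Srxn1, Txn1, Txnrd1, Usp18 and Zbp1.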

How the data were processed

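The values are raw read counts per gene, deposited by the authors as 1 table of 15 libraries (TruSeq Stranded kit, per the labels). The submitters' processing notes name STAR 2.7.0e, SAMtools 1.9 and featureCounts, with GRCm38.p5 as the build. Which annotation and strand setting the counting used is not given in the sources used here. Of 25700 gene identifiers, 25664 were matched to GENCODE M21 (GRCm38), which gave symbols and positions.

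The test was edgeR's quasi-likelihood test (version 4.0.16, R 4.3.3). After the filterByExpr filter 11883 genes were left, totals were scaled by TMM, and all 15 libraries entered 1 model with group means, with Benjamini-Hochberg adjustment over all genes tested and a threshold of 0.05. CPM are computed on the scaled totals. A gene with 0 counts in a group is given as a bound against 3 counts over that group, and one with 1 to 3 counts as a ratio with a 95% interval. Both cover counting error only. On simulated counts for this comparison (11749 genes), 50 genes were changed at each fold size. Recovered were 8 at 1.5-fold, 38 at 2-fold, 44 at 4-fold and 47 at 8-fold, and among 141 calls 4 were of unchanged genes (2.84%).

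The column headers carry 3 dates, 1 per replicate number, which pairs the libraries. Deviations from the group means of same-numbered libraries correlated at 0.00654, 0.0395 and 0.212 over 9761 genes, against -0.191 to 0.0885 for other pairs. Alternative fits took the replicate number as a block, in all 15 libraries and in the groups compared alone. Further alternatives were DESeq2 (version 1.42.0) as the tool, its size factors or upper-quartile scaling within edgeR, dropping the filter or asking for 5 CPM in 3 libraries, fitting the compared groups alone, and leaving out each library in turn.

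The libraries, gene lists and tests were chosen with earlier results of these data known. Genes were named from the 20 largest rises and 15 largest falls (mean of 5 CPM or more, groups not overlapping), the 8 largest gains and losses in CPM, up to 8 called and 4 uncalled members of each list, and the markers. Some genes that this rule takes are not reported here. Promoter windows are those of RefSeq (GRCm38.p6). Plots were made in matplotlib 3.10.9 (Python 3.11.15).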

Additional observations from a re-analysis of the deposited data

How the results depend on the processing

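The counts of genes that rose and fell at 400 µM stayed within 1.5 times the reported counts under every alternative run. Over the tool, scaling, filter and sample settings 1575 to 1824 genes rose and 1181 to 1546 fell, and over leaving out single libraries 1245 to 1781 rose and 902 to 1232 fell. With the replicate number as a block, 1895 rose and 1514 fell in all 15 libraries, and 1480 and 1383 in the 6 libraries alone. Among the genes named, fits with the block changed the call only of Cd163, Oas3, Cd68 and Cd14, which were called with it. Cd68 passed with the block in all 15 libraries (adjusted p = 0.0365) and Cd14 with it in the 6 libraries alone (adjusted p = 0.0402). Without a block, Cd68, Cd14 and Lyz2 also passed in the 6 libraries alone (adjusted p = 0.036, 0.0426 and 0.049). Each gene named as risen or fallen, Mertk aside, was called under every alternative in which it was tested. Mertk fell in the main fit (-1.36, adjusted p = 0.048). It was not called without Control replicate 1, 2 or 3 or without Heme400 replicate 1 or 2 (adjusted p = 0.0564 to 0.167). H2-D1, Csf1r, Ifnar2, Mt1 and Mt2, which were not called and lie near 0, changed sign without single libraries (H2-D1 from -0.19 to 0.02, Csf1r from -0.13 to 0.05, Ifnar2 from -0.06 to 0.02, Mt1 from -0.17 to 0.01, Mt2 from -0.19 to 0.19), and Mt2 was at 0.01 with upper-quartile factors, with the 5 CPM filter and with the block in all 15 libraries, and at 0.02 with the block in the 6 libraries alone. Between 400 and 200 µM, 0 genes were called in edgeR, DESeq2 called 2 higher and 9 lower, and the block in those 6 libraries alone 147 higher and 97 lower; the cause was not tested. The smallest library held 8427352 counts, so genes near 1 CPM rest on few counts, and with 3 libraries a group changes under 2-fold are often missed, as the simulated counts show.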

Other observations

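Several gene families outside the lists above were counted too. The PYHIN family, whose members bind DNA in the nucleus and cytosol, had 0 of 8 tested members higher and 6 lower (median -1.49). Ifi206 went from 4.35, 8.71 and 2.58 CPM in controls to 0.219, 0.360 and 0.550 CPM with heme-albumin (-3.74 ± 0.54, adjusted p = 2.34e-04, edgeR), and Ifi208, chosen after its values were seen, from 2.62, 4.05 and 2.15 CPM to 0.109, 0.120 and 0.0786 CPM (31.1-fold lower, counting interval 10.4 to 153). The Schlafen family had 0 of 7 higher and 4 lower (median -1.10). These families are interferon-inducible and their members resemble each other, so single values are uncertain. Of 34 ABC transporters 15 rose and 4 fell (median 0.37). Of 205 solute carriers 45 rose and 27 fell (median 0.07), and without Control replicate 3 or Heme400 replicate 2 the count that fell was 17. The glycine transporter Slc6a9 rose from 2.17, 2.18 and 2.69 CPM to 36.5, 103 and 37.5 CPM (4.66 ± 0.61). Of 326 zinc finger genes with a Zfp symbol, 28 rose and 9 fell (median 0.10), and 10 to 16 rose without Control replicate 1, 2 or 3 or Heme400 replicate 2.

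Single genes with tight replicates also moved. Fosl1, a subunit of AP-1, went from 1.53, 0.605 and 1.40 CPM to 35.5, 28.6 and 31.2 CPM (4.78 ± 0.36, adjusted p = 1.69e-06), while Jun was at -0.15 ± 0.16 (adjusted p = 0.526). The phosphatase Dusp5, which acts on ERK, rose by 2.29 ± 0.36. Cebpa, a myeloid transcription factor, rose from 26.7, 30.5 and 34.2 CPM to 98.4, 94.5 and 107 CPM (1.72 ± 0.29), and the colony-stimulating factor receptor Csf1r was at -0.06 ± 0.25 (adjusted p = 0.89). Dbp, an output gene of the circadian clock, fell from 12.8, 12.6 and 16.8 CPM to 3.83, 2.52 and 4.40 CPM (-1.94 ± 0.25). Mdm2, which degrades p53, rose by 0.99 ± 0.13. Tsc22d3, a glucocorticoid-induced gene, fell (-1.39 ± 0.18), as did Epas1, which encodes the hypoxia factor HIF-2 alpha (-1.82 ± 0.30). Pcx, pyruvate carboxylase, rose from 8.70, 8.95 and 9.03 CPM to 49.5, 60.9 and 47.5 CPM (2.56 ± 0.32).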
